A study of Mus musculus with 20 samples.

Results

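Integrin and laminin genes were taken as all genes of the array annotation whose symbols name an integrin α subunit, an integrin β subunit or a laminin α, β or γ chain. They numbered 34 of the 18194 genes measured, of which 24 encode integrin subunits and 10 encode laminin chains. Their mean signals spanned the 3.83 (Itgam) to the 98.8 (Itgb5) percentile of all genes. Only probe sets with 1 gene symbol were considered, and the probe set with the highest mean signal over all arrays stood for its gene. Salivary glands (SGs) of C57BL/6J mice, the healthy comparison strain of a study of Sjögren’s syndrome–like disease, were profiled at ages of 4, 8, 12 and 16 weeks. The 5 mice of each age gave 1 array each, for 20 arrays in all, and lymph nodes had been removed from the glands. The labels give no transgene and no treatment, and age is the one labelled difference between the groups. RNA came from the whole gland with all its cell types.

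Laminins are heterotrimers of 1 α, 1 β and 1 γ chain that polymerise into the basement membrane beneath epithelia and around muscle, nerve and vessels. Integrins are αβ heterodimers of the cell surface. Those formed from Itga3, Itga6 or Itga7 with Itgb1, and from Itga6 with Itgb4, bind laminins, and the last of these anchors epithelial cells through hemidesmosomes. In SGs, laminins and their receptors are known for their part in branching morphogenesis and in the polarity of acini.

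The acinar markers of the gland were bright, with 4 measured genes in the highest percentiles of all genes (99 to 99.9). The mice were labelled male, yet Xist had a log2 signal of 8.96 to 10.7 in all 20 arrays, at or above the 96.3 percentile of genes in each, and of 3 Y-linked genes Eif2s3y had one of 2.07 to 2.97 (0.236 to 4.6 percentile), Kdm5d one of 3.65 to 4.75 (12.4 to 31.2 percentile) and Uty one of 4.58 to 5.76 (30.9 to 59.4 percentile). The arrays also differed in the spread of signal, the standard deviation (SD) over all genes of an array, which ranged over 1.55 to 1.90 (4 weeks), 1.38 to 1.60 (8 weeks), 1.60 to 1.67 (12 weeks) and 1.39 to 1.74 (16 weeks). Correlations between arrays ran from 0.792 to 0.983, and no pair of arrays was identical. Fewer cells of a type and less RNA per cell cannot be told apart in such bulk samples.

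Of the 34 integrin and laminin genes, 2 rose and 1 fell at 8 weeks against 4 weeks by limma at an adjusted p under 0.05. Both genes that rose, Itgb6 and Itga4, and the gene that fell, Itga8, encode integrin subunits that do not bind laminin as their main ligand. At 16 weeks against 4 weeks only Lamc1, the γ chain of most laminins, passed the test, and it fell. No member passed in the other 4 comparisons of ages. Over all genes tested, 3.26% rose and 4.13% fell at 8 weeks against 4 weeks, so that the members’ counts were near this background. The median log2 fold change was -0.05 for the members and 0.05 for all genes in this comparison. Without 1 mouse the median of the members was -0.11 to 0.0134, and it was above 0 without the 4-week mouse 1 or 2 or the 8-week mouse 3. Before adjustment, 5 members were higher and 5 were lower at a p under 0.05 (14.7% each), beside 16.9% and 15.5% of all genes.

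**Figure D1:**
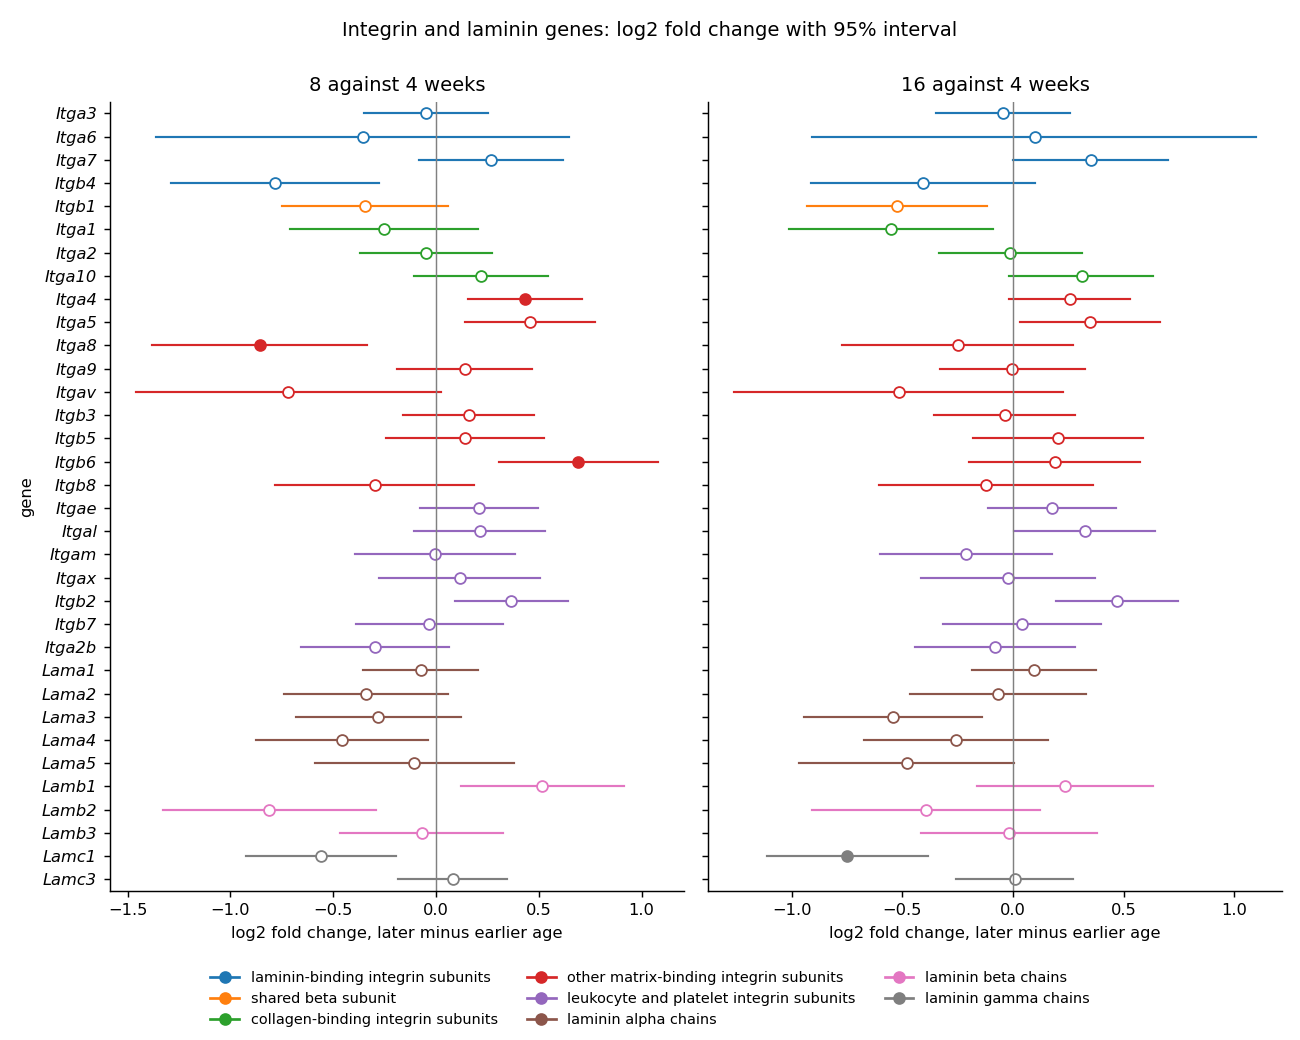
Log2 fold changes (x axis, later minus earlier age) of the 34 integrin and laminin genes (y axis, colored by role) at 8 against 4 weeks and at 16 against 4 weeks, with 95% intervals from limma over 5 mice an age. Filled points passed the test: Itga4, Itga8 and Itgb6 in the left panel and Lamc1 in the right one.

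Itgb6, which pairs with Itgav in an epithelial integrin that binds and activates latent transforming growth factor β, had log2 signals of 4.68, 4.83, 5.20, 4.76 and 5.25 in the mice at 8 weeks, against 4.53, 4.40, 4.49, 4.13 and 3.72 at 4 weeks. All 5 mice at 8 weeks lay above all 5 at 4 weeks. The gene rose by 0.69 on the log2 scale (standard error 0.185, limma, adjusted p = 0.0352). Its signals were 4.55, 4.30, 3.94, 4.43 and 4.19 at 12 weeks, all below those at 8 weeks, and 4.00, 4.34, 4.37, 4.92 and 4.57 at 16 weeks. The log2 fold change was -0.66 at 12 weeks against 8 weeks (limma, adjusted p = 0.129), which did not pass the test. Both probe sets of Itgb6 had a positive sign at 8 weeks against 4 weeks, and the other one had a log2 fold change of 0.25 (limma over all probe sets, adjusted p = 0.34). Leaving out the 4-week mouse 4 or 5, or the 8-week mouse 3 or 5, ended the call (limma, adjusted p of up to 0.125).

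Itga4, the subunit of leukocyte receptors for Vcam1 and fibronectin, had log2 signals of 5.45, 5.30, 5.71, 5.33 and 5.32 at 8 weeks, against 5.00, 5.16, 5.17, 4.95 and 4.65 at 4 weeks. The groups did not overlap. The gene rose by 0.43 on the log2 scale (standard error 0.132, limma, adjusted p = 0.0496), the value closest to the threshold among the 3 calls. At 12 weeks its signals were 5.22, 5.09, 5.31, 5.18 and 5.30, and at 16 weeks 5.10, 5.44, 5.19, 5.52 and 4.97. All 5 of its probe sets had positive signs at 8 weeks against 4 weeks, with log2 fold changes of 0.18 to 0.51. With each mouse left out in turn the log2 fold change was 0.35 to 0.48 (limma, adjusted p of up to 0.164). The call was lost in 13 of these 20 fits, those without the 4-week mouse 1, 4 or 5, the 8-week mouse 1, 2, 3 or 5, any 12-week mouse or the 16-week mouse 3.

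Itga8, which pairs with Itgb1 in a receptor for nephronectin and is found on mesenchymal cells, had log2 signals of 5.59, 4.65, 4.29, 5.16 and 4.58 at 8 weeks, against 5.64, 5.57, 5.30, 5.83 and 6.22 at 4 weeks. Of the mice at 8 weeks, 4 lay below all those at 4 weeks and mouse 1 lay among them. The gene fell by 0.86 on the log2 scale (standard error 0.251, limma, adjusted p = 0.0446). Its signals were 5.56, 5.88, 5.85, 5.60 and 5.74 at 12 weeks and 6.14, 4.57, 5.61, 5.55 and 5.44 at 16 weeks. The log2 fold change at 12 weeks against 8 weeks was 0.87 (limma, adjusted p = 0.136). Its other, dimmer probe set had a log2 fold change of 0.12 at 8 weeks against 4 weeks (limma, adjusted p = 0.542), so that the fall rests on 1 of 2 probe sets. The call was lost in 12 of the 20 fits that left out 1 mouse (limma, adjusted p of up to 0.15), namely the 4-week mouse 4 or 5, the 8-week mouse 2, 3 or 5, any 12-week mouse, or the 16-week mouse 3 or 5.

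**Figure D2:**
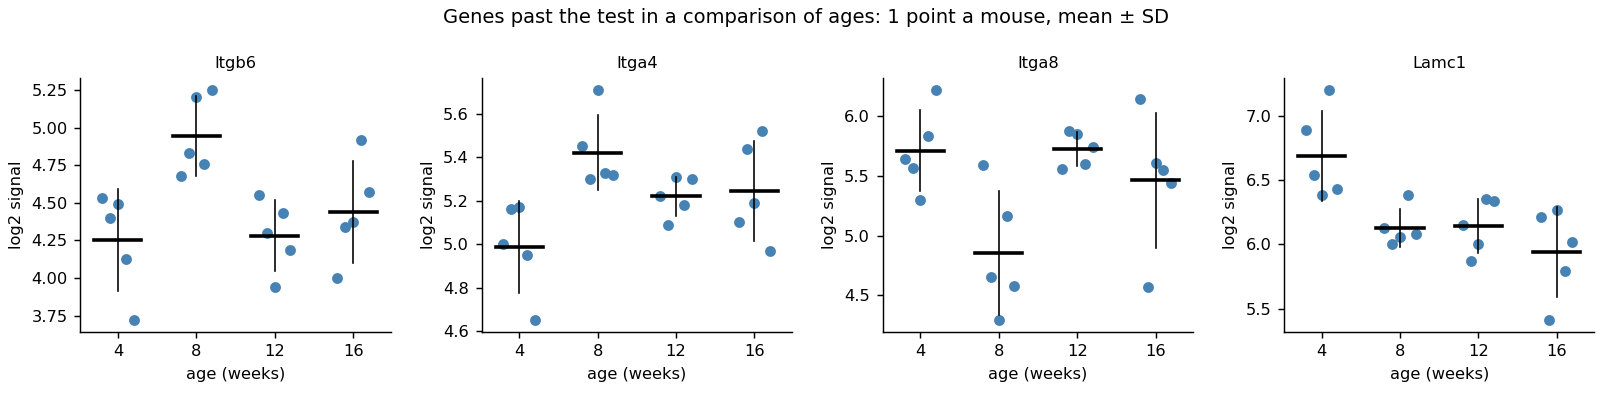
Log2 signal (y axis) of Itgb6, Itga4, Itga8 and Lamc1 by age in weeks (x axis), with 1 point a mouse, horizontal lines at the mean of 5 mice and vertical lines for 1 SD. Itgb6 and Itga4 were highest and Itga8 lowest at 8 weeks, whereas Lamc1 was highest at 4 weeks.

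The 3 genes that passed the test at 8 weeks against 4 weeks lie on chromosome 2 of the GRCm38.p6 build, as do 7 of the 34 members. Itga4 spans chr2:79255426-79333114, Itga8 chr2:12106632-12301985 and Itgb6 chr2:60598292-60722603. Their promoters, from 250 bases before to 50 bases after the annotated start (RefSeq, GRCm38.p6), are shown because these genes moved in opposite directions at the same age. Itga4 is on the plus strand and the others are on the minus strand, and capitals mark a GC box (GGGCGG on either strand).
Itga4, chr2:79255176-79255475: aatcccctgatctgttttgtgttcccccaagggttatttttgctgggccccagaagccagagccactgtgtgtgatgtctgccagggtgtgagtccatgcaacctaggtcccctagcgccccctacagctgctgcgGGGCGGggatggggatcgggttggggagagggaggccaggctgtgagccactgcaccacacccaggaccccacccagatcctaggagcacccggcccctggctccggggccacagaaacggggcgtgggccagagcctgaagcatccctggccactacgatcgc
Itga8, chr2:12301895-12302194: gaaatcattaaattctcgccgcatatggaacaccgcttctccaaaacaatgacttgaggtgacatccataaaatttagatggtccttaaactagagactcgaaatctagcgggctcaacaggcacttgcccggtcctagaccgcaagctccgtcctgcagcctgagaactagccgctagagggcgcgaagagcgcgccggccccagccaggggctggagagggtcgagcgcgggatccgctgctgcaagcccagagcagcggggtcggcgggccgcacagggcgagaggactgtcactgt
Itgb6, chr2:60722554-60722853: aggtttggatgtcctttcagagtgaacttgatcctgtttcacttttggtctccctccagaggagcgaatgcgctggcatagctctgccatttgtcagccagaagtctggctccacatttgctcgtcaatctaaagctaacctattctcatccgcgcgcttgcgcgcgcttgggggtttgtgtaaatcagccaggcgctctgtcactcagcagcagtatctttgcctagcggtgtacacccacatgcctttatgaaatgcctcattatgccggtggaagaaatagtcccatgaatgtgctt
Itga4 held 1 GC box, and the windows of Itga8 and Itgb6 held none. This motif was found in 35.7% of all 32851 promoters of the table. No CCAAT (37.4% of promoters) and no TATAAA (13.6%) was found on either strand of the 3 windows, and no matches overlapped. A second annotated start of Itgb6 (chr2:60673644-60673943) held none of the 3 motifs either. CG dinucleotides numbered 10 in Itga4, 23 in Itga8 and 12 in Itgb6, and 56.5%, 78.5% and 60.4% of promoters had fewer. These matches describe the windows and were not tied to the signals.

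Each of the 3 genes also followed the spread of the arrays among mice of 1 age. The correlation of its signal with the spread, on values centred on each age (20 arrays), was -0.82 for Itgb6, -0.55 for Itga4 and 0.68 for Itga8. Over the members the median correlation was -0.09 and the range -0.82 to 0.763, and over all genes the median was -0.05. The mean spread was 1.50 at 8 weeks, against 1.68 at 4 weeks. With the spread as a covariate, the log2 fold changes at 8 weeks against 4 weeks were 0.30 for Itgb6, 0.27 for Itga4 and -0.39 for Itga8 (limma, adjusted p = 0.481, 0.509 and 0.536), and 0 members passed. The share of all genes that passed in this fit is not given here. The loss of the calls therefore cannot be read as particular to the members.

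Markers of other cells moved in the same period. Of 5 fibroblast markers, 2 fell at 8 weeks against 4 weeks, with log2 fold changes of -1.17 for Col1a2 and -0.76 for Lum (limma, adjusted p = 0.0392 and 0.0381). The mean signal of this list was 6.12 to 6.97 at 8 weeks, against 7.18 to 7.74 at 4 weeks, with no overlap. Of 6 myoepithelial and basal markers, Myh11 alone fell, with a difference of -1.12 (limma, adjusted p = 0.0414), and the mean of the list was 6.32 to 7.10 at 8 weeks, against 6.69 to 7.79 at 4 weeks. Of 6 T and NK cell markers, Cd3e alone rose, by 0.41 (limma, adjusted p = 0.0446), and the mean of the list was 5.56 to 5.83 at 8 weeks, against 5.14 to 5.69 at 4 weeks. Of 5 myeloid markers, Cd68 alone fell, by 0.62 (limma, adjusted p = 0.0477), with list means of 5.90 to 6.08 at 8 weeks, against 5.74 to 6.37 at 4 weeks. Of 4 megakaryocyte and platelet markers, Gp9 alone rose, by 0.56 (limma, adjusted p = 0.0461), with list means of 5.24 to 5.71 at 8 weeks, against 4.96 to 5.30 at 4 weeks. None of the 4 acinar markers passed, but all 4 were negative (median -0.77), with list means of 9.37 to 10.8 at 8 weeks, against 10.6 to 11.3 at 4 weeks. None of the 5 endothelial or 3 B cell markers passed. The part of these cells in the values of Itga4, Itga8 and Itgb6 was not tested.

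Of the 10 laminin chains, 8 had a negative log2 fold change at 8 weeks against 4 weeks, with a median of -0.19, as had 12 of the 24 integrin genes and 8215 of all 18194 genes. No laminin gene passed the test in this comparison. By 16 weeks 7 of 10 were negative against 4 weeks (median -0.16), and Lamc1 fell. Of all 18194 genes, 8935 were negative in this comparison (median 0.0077). Of the negative chains, Lama3, Lama4 (-0.258 to 0.126), Lama5 and Lamc1 each had another probe set with a positive sign. Of the positive chains, Lamb1 and Lamc3 had probe sets with a negative sign. The mean was highest at 4 weeks in 6 of 10 laminin genes, in 8 of 24 integrin genes and in 29.3% of all genes.

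Among the laminin α chains, the chosen probe sets of all 5 had negative log2 fold changes at 8 weeks against 4 weeks, none of which passed. In this comparison the 2 probe sets of Lama4 ran from -0.457 to 0.147 and the 3 of Lama5 from -0.106 to 0.288. Lama4, a chain of vessels and mesenchyme, gave -0.46 (standard error 0.200, limma, adjusted p = 0.124), Lama2, a chain of muscle and nerve, -0.34 (limma, adjusted p = 0.217), and Lama1 -0.08 (limma, adjusted p = 0.709). The signal of Lama1 was dim, at the 6.17 percentile of all genes. Lama3, the α chain of the epithelial laminin of hemidesmosomes, averaged 6.00 ± 0.355, 5.72 ± 0.309, 5.41 ± 0.312 and 5.46 ± 0.267 in order of age (4, 8, 12 and 16 weeks, SD, n = 5 each). Its log2 fold change was -0.60 at 12 weeks against 4 weeks (limma, adjusted p = 0.386) and -0.54 at 16 weeks against 4 weeks (limma, adjusted p = 0.102). The 2 probe sets of Lama3 ran from -0.543 to 0.0483 at 16 weeks against 4 weeks. Lama5, the main α chain of epithelial basement membranes, had log2 signals of 8.10, 8.30, 8.34, 8.45 and 8.47 at 16 weeks, against 9.56, 9.39, 8.43, 8.52 and 8.18 at 4 weeks. The difference of -0.48 (limma, adjusted p = 0.21) came with an SD of 0.147 at 16 weeks, against 0.615 at 4 weeks, where mice 1 and 2 were the high ones. Of the 3 probe sets of Lama5, 2 were positive at 16 weeks against 4 weeks, with a range of -0.481 to 0.295.

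Among the laminin β chains, Lamb2 had log2 signals of 4.12, 4.50, 3.19, 4.48 and 3.70 at 8 weeks, against 5.01, 5.45, 4.25, 4.52 and 4.81 at 4 weeks. The ranges overlapped, and the log2 fold change of -0.81 (standard error 0.248, limma, adjusted p = 0.0502) lay just outside the threshold. Lamb1, dim at the 11.7 percentile of all genes, had the opposite sign, at 0.52 (standard error 0.191, limma, adjusted p = 0.0803). However, its 4 probe sets ran from -0.47 to 0.52. Lamb3, the β chain that joins Lama3, gave -0.07 (limma, adjusted p = 0.814), with an interval of -0.47 to 0.33.

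Lamc1 had log2 signals of 6.21, 5.41, 6.27, 5.79 and 6.02 at 16 weeks, against 6.89, 6.54, 6.38, 7.20 and 6.43 at 4 weeks. The groups did not overlap, and the gene fell by 0.75 on the log2 scale (standard error 0.176, limma, adjusted p = 0.0276). It spans chr1:153218922-153332786. The mice at 8 weeks, with 6.13, 6.00, 6.06, 6.38 and 6.08, and those at 12 weeks, with 6.15, 5.87, 6.00, 6.35 and 6.34, also lay at or below the lowest mouse at 4 weeks. The log2 fold changes were -0.56 at 8 weeks against 4 weeks (limma, adjusted p = 0.0529) and -0.55 at 12 weeks against 4 weeks (limma, adjusted p = 0.379), and neither passed. Lamc3, a γ chain of restricted distribution, gave 0.0073 at 16 weeks against 4 weeks (limma, adjusted p = 0.978). Over all genes, 0.506% rose and 3.12% fell at 16 weeks against 4 weeks, beside 0 and 1 of the 34 members.

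The second probe set of Lamc1 went the other way. Its log2 signals were 4.09, 4.74, 4.02, 4.52 and 4.09 at 16 weeks, against 3.36, 3.65, 3.99, 3.56 and 3.68 at 4 weeks, again without overlap. With each probe set tested on its own, the first fell by 0.75 (limma, adjusted p = 0.0291) and the second rose by 0.65 (limma, adjusted p = 0.045). These were the only 2 of the members’ 73 probe sets to pass at 16 weeks against 4 weeks, beside 0.687% of all probe sets that rose and 2.82% that fell. The correlation of the 2 probe sets among mice of 1 age was -0.69 (20 arrays). With the mean of the 2 probe sets, the log2 fold change of Lamc1 was -0.05 (limma, adjusted p = 0.756). The fall of Lamc1 is thus the fall of 1 probe set, and which transcripts each measures was not analysed here. It was also lost without the 4-week mouse 4 or 5 or the 16-week mouse 2, 4 or 5 (limma, adjusted p of up to 0.0898) and with the spread of the arrays as a covariate (limma, adjusted p = 0.147). Of the 5 fibroblast markers, Col1a1 and Lum fell at 16 weeks against 4 weeks, with list means of 6.27 to 7.94 at 16 weeks, against 7.18 to 7.74 at 4 weeks. Of the 4 acinar markers, all were negative in this comparison (median -1.09) and Smgc fell by 1.74 (limma, adjusted p = 0.0023), with list means of 9.14 to 11 at 16 weeks, against 10.6 to 11.3 at 4 weeks. All 6 myoepithelial and basal markers were negative (median -0.59) and 0 passed, with list means of 6.25 to 7.02 at 16 weeks, against 6.69 to 7.79 at 4 weeks. The part of these cells in the fall of Lamc1 was not tested.

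**Figure D3:**
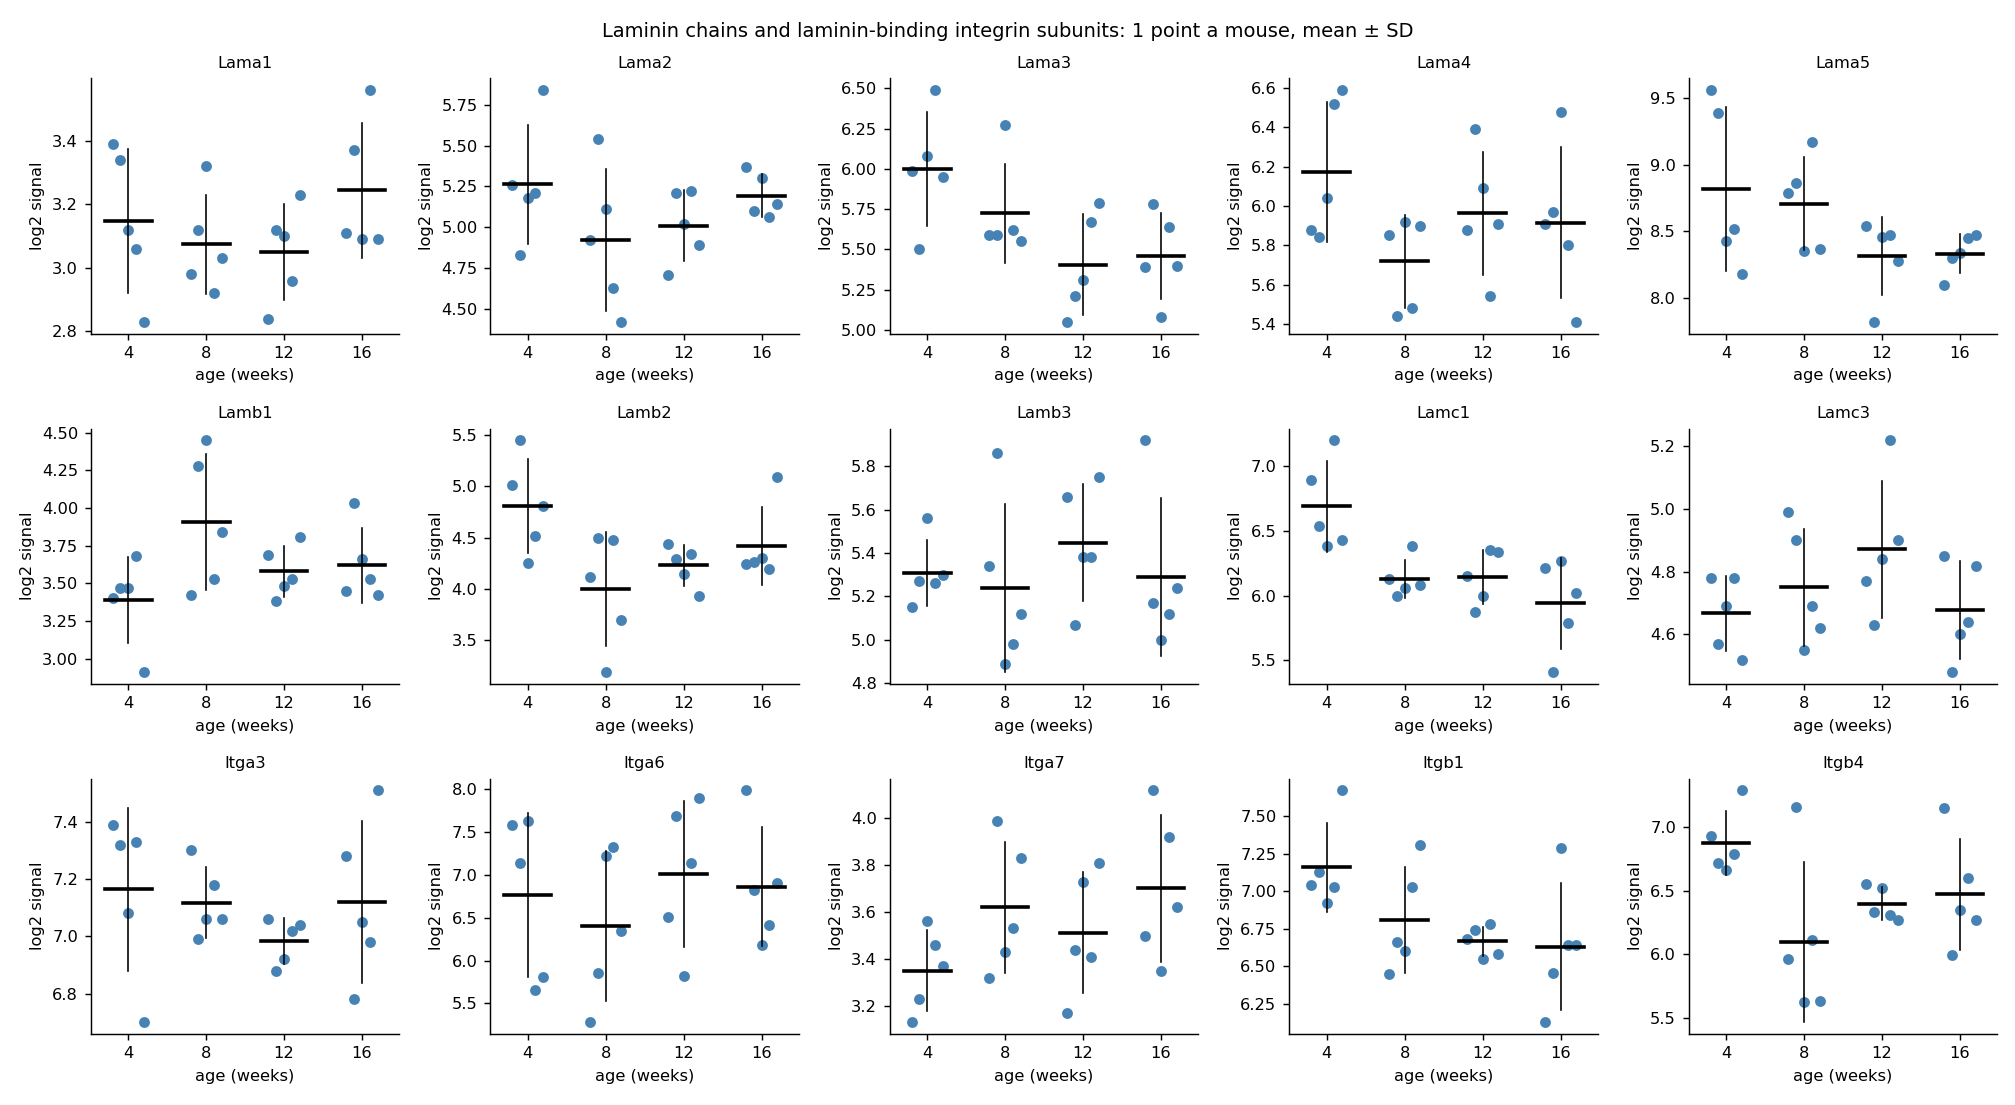
Log2 signal (y axis) of the 10 laminin chains and 5 laminin-binding integrin subunits by age in weeks (x axis), with 1 point a mouse, horizontal lines at the mean of 5 mice and vertical lines for 1 SD. Each gene has its own y axis, and signals of different probe sets are not comparable. Lamc1 shows mice at 16 weeks below all mice at 4 weeks, and Itga6 shows the widest scatter within an age.

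The laminin receptors did not pass the test in any of the 6 comparisons. Itgb4, the hemidesmosomal β subunit, had log2 signals of 5.96, 7.16, 5.62, 6.11 and 5.63 at 8 weeks, against 6.93, 6.72, 6.66, 6.79 and 7.29 at 4 weeks. Mouse 2 at 8 weeks lay among the mice at 4 weeks, and the other 4 lay below all of them. The log2 fold change was -0.78 (standard error 0.242, limma, adjusted p = 0.052), and at 12 weeks, when all 5 mice lay below those at 4 weeks, it was -0.48 against 4 weeks (limma, adjusted p = 0.566). Itgb1, the β subunit shared by most matrix receptors, had log2 signals of 6.13, 6.46, 7.29, 6.64 and 6.64 at 16 weeks, against 7.04, 7.13, 6.92, 7.03 and 7.67 at 4 weeks. Here 4 of the older mice were below all mice at 4 weeks, and the log2 fold change was -0.53 (standard error 0.195, limma, adjusted p = 0.114). Itga3 had log2 fold changes of -0.05 at 8 weeks against 4 weeks (interval -0.35 to 0.25) and -0.05 at 16 weeks against 4 weeks (interval -0.35 to 0.26). Itga7, the laminin receptor of muscle, gave 0.27 at 8 weeks and 0.35 at 16 weeks, each against 4 weeks (limma, adjusted p = 0.264 and 0.205). Its signal was dim, at the 10.6 percentile of all genes.

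Itga6, the α subunit of hemidesmosomes, varied more within ages than any other member. The youngest mice, at 4 weeks, had log2 signals of 7.59, 7.14, 7.63, 5.66 and 5.81, and those at 8 weeks had 5.28, 5.85, 7.22, 7.33 and 6.35. The mice at 12 weeks had 6.51, 7.69, 5.82, 7.14 and 7.90, and those at 16 weeks had 7.99, 6.82, 6.18, 6.42 and 6.91. The SD within ages was 0.855, which exceeded that of 99% of genes, beside medians of 0.296 for the members and 0.285 for all genes. The ages overlapped throughout, and the log2 fold change at 8 weeks against 4 weeks was -0.36 with an interval of -1.36 to 0.65. The second probe set of Itga6, almost as bright, gave another picture, with log2 signals of 6.44, 6.64, 5.81, 6.97 and 5.81 at 8 weeks, against 7.0, 6.83, 7.20, 7.32 and 7.64 at 4 weeks. Tested on its own it fell by 0.86 (limma, adjusted p = 0.0473), although 1 mouse at 8 weeks overlapped. Its correlation with the first probe set among mice of 1 age was 0.00017 (20 arrays).

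Disagreement of this kind was common. Of 20 members with several probe sets, the signs differed within 11 genes at 8 weeks against 4 weeks and within 14 at 16 weeks against 4 weeks. The correlation of the chosen probe set with each of 39 others of its gene, among mice of 1 age, had a median of 0.154 and ran from -0.697 for Itgav to 0.753 for Itgb5, with 16 below 0. Tested on their own at 8 weeks against 4 weeks, 3 of 73 probe sets rose (beside 2.93% of all probe sets) and 2 fell (beside 3.51%). Those that rose belonged to Itgb6, Itga4 and Itgb1, where a dimmer probe set rose by 0.67 (limma, adjusted p = 0.0393) while the chosen one gave -0.35. Those that fell belonged to Itga8 and Itga6. The chosen probe set of Itga4 had an adjusted p of 0.0515 in this fit, which adjusts over more tests.

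**Figure D4:**
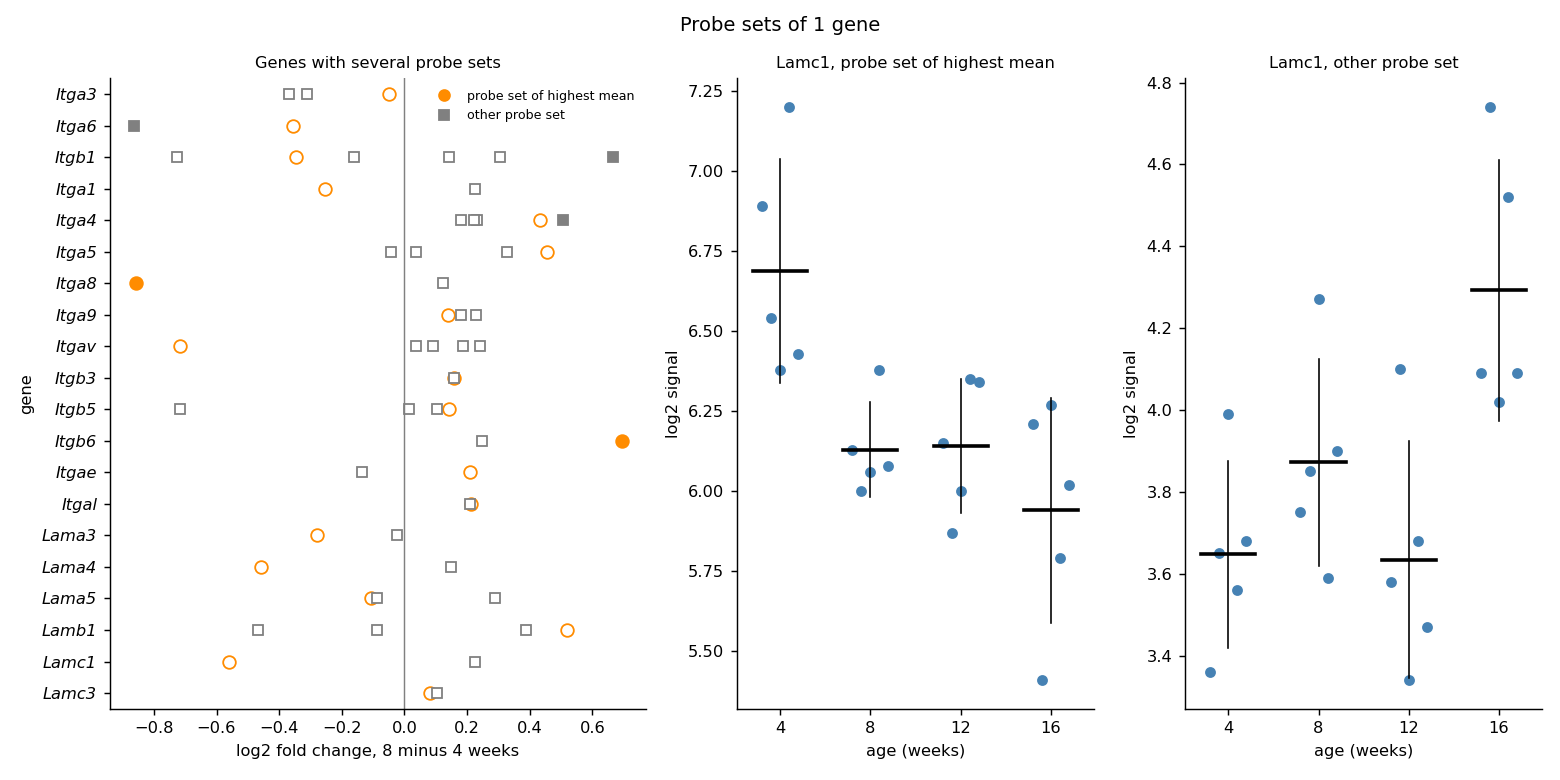
Left, log2 fold change at 8 minus 4 weeks (x axis) of each probe set of the 20 genes with several (y axis), with circles for the probe set of highest mean, squares for the others, and filled symbols for those that passed the test over all probe sets. Middle and right, log2 signal (y axis) of the 2 probe sets of Lamc1 by age in weeks (x axis), with 1 point a mouse, the mean of 5 mice and 1 SD. The first is lower and the second higher at 16 weeks than at 4 weeks.

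Among the other matrix receptors, Itga5, the fibronectin receptor subunit, had log2 fold changes of 0.46 at 8 weeks against 4 weeks (standard error 0.152, limma, adjusted p = 0.063) and 0.35 at 16 weeks against 4 weeks (limma, adjusted p = 0.166). Itgav, the α subunit of vitronectin receptors, had log2 signals of 8.79, 6.76, 7.16, 8.04 and 6.98 at 8 weeks, against 7.97, 8.01, 7.90, 8.83 and 8.60 at 4 weeks, a difference of -0.72 that did not pass (standard error 0.357, limma, adjusted p = 0.167). Of its 5 probe sets, the other 4 had positive signs. Itgb5, a partner of Itgav, gave 0.14 at 8 weeks against 4 weeks (limma, adjusted p = 0.596). This value depended on the scaling, as cyclic loess gave 0.85 (limma, adjusted p = 0.0497). The 3 collagen receptor subunits Itga1, Itga2 and Itga10 gave -0.25 to 0.22 at 8 weeks against 4 weeks, and the matrix receptor subunits Itga9, Itgb3 and Itgb8 gave -0.30 to 0.16. None of them passed.

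Itga4, described above, is also carried by leukocytes. Of the subunits grouped as leukocyte and platelet integrins (Itgal, Itgam, Itgax, Itgae, Itga2b, Itgb2 and Itgb7), none passed in any comparison. Itgb2, the common β subunit of leukocyte adhesion receptors, had log2 signals of 4.64, 5.10, 4.51, 5.03 and 4.59 at 16 weeks, against 4.37, 4.07, 4.50, 4.19 and 4.40 at 4 weeks. The groups did not overlap, yet the log2 fold change of 0.47 (standard error 0.132, limma, adjusted p = 0.0507) lay just outside the threshold. In order of age its means were 4.31, 4.67, 4.65 and 4.78, and the mice at 8 and at 12 weeks also lay above all those at 4 weeks. Its partners Itgal, Itgam and Itgax gave 0.32, -0.21 and -0.02 at 16 weeks against 4 weeks (limma, adjusted p = 0.20, 0.502 and 0.96). Itgae and Itgb7, the receptor of intraepithelial lymphocytes for Cdh1, gave 0.18 and 0.04 in the same comparison (limma, adjusted p = 0.449 and 0.904). The T and NK cell markers, of which 0 of 6 passed in this comparison, had mean signals of 5.42 to 5.84 at 16 weeks, against 5.14 to 5.69 at 4 weeks, and their part was not tested.

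Among members, 3 had values at 8 weeks that lay wholly above those at 4 weeks (Itgb6, Itga4 and Itgb2) and 1 had values wholly below (Lamc1), beside 5.75% of all genes without overlap in either direction. At 16 weeks against 4 weeks these were Itgb2 and Lamc1, beside 3.07%. At 12 weeks against 4 weeks they were Itgb2 above and Lamc1, Itgb4 and Itgb1 below, beside 2.35%. At 12 weeks against 8 weeks Itgb6 alone lay wholly below, beside 5.34%. At 16 weeks against 12 weeks Itga2b alone lay wholly above, beside 2.65%, and at 16 weeks against 8 weeks no member did, beside 0.945%.

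After 8 weeks of age no member passed the test between neighbouring ages. The members with the largest moderated t at 12 weeks against 8 weeks were Itgb6, Itga8 and Itga9, with log2 fold changes of -0.66, 0.87 and -0.51 (limma, adjusted p = 0.129, 0.136 and 0.143). Before adjustment 2 members were higher and 3 lower at a p under 0.05 (5.88% and 8.82%), beside 11.1% and 7.74% of all genes. By adjusted p, 0 members passed, and over all genes 0.0055% rose and 0% fell. Between 12 and 16 weeks, with the older age over the younger, they were Itga2b, the platelet α subunit, Itga10 and Itga9, with 0.42, 0.37 and 0.37 (limma, adjusted p = 0.298, 0.298 and 0.301). Before adjustment 3 members were higher and 0 lower, beside 4.18% and 9.99% of all genes. By adjusted p, 0.0055% of all genes rose and 0.187% fell. At 12 weeks against 4 weeks the leading members were Lamc1, Lama3 and Itga2b, with -0.55, -0.60 and -0.50 (limma, adjusted p = 0.379, 0.386 and 0.433). Before adjustment 1 member was higher and 7 were lower (2.94% and 20.6%), beside 5.02% and 4.01% of all genes. By adjusted p, 0.066% of all genes rose and 0.0275% fell. For 16 weeks against 8 weeks they were Itgb6, Itga8 and Lamb2, with -0.51, 0.61 and 0.42 (limma, adjusted p = 0.778, 0.814 and 0.865). Before adjustment 1 member was higher and 1 lower (2.94% each), beside 1.42% and 4.39% of all genes, and by adjusted p 0% of all genes rose and 0% fell. The F-test over all 4 ages called 0 of 34 members and 2.6% of all genes, with 11 members and 25.9% of all genes under 0.05 before adjustment, and the lowest adjusted p among members was 0.0639, for Lamc1. The standard errors of the members’ log2 fold changes, 0.127 for Lamc3 to 0.484 for Itga6, reflect the precision that 5 mice an age allowed.

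Partners within a dimer or trimer, and laminin chains with subunits of their receptors, were set side by side across mice within ages. Of 17 pairs measured, 7 had a positive correlation. Itgav and Itgb5 alone passed adjustment over the 17 pairs (r = 0.817, p = 8e-05, adjusted p = 0.00136; rho = 0.749, adjusted p = 0.00578, permutation tests within ages, 2-sided, 20 arrays). Without the 2 arrays farthest from the median of Itgav, r was 0.671. The chosen probe set of Itgav correlated with its other probe sets at -0.697, -0.444, -0.027 and 0.0137 within ages. The relation therefore rests on the chosen probe set of Itgav, and the others were not tested in pairs. Both genes also followed the spread of the arrays (0.763 and 0.617), and with the spread removed r was 0.681 (adjusted p = 0.0156, permutation test), whereas after cyclic loess it was -0.07 (adjusted p = 0.939, permutation test). Of all genes, 97% had a lower correlation with Itgav than Itgb5 had. Itgae and Itgb7 gave r = 0.627 (adjusted p = 0.0658, permutation test), and passed by rho (0.692, adjusted p = 0.0422, permutation test). Here 99.3% of genes had a lower correlation with Itgae, and r was 0.604 with the spread removed and 0.545 after cyclic loess.

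No laminin trimer and no laminin with its receptor passed. Itga3 and Lama5 had the largest r of these, 0.51 (adjusted p = 0.18, permutation test). Their r was 0.501 with the spread removed (adjusted p = 0.0646, permutation test) and 0.763 after cyclic loess (adjusted p = 0.152, permutation test). The hemidesmosomal pair Itga6 and Itgb4 gave r = -0.158 (adjusted p = 0.902, permutation test), Itgb4 and Lama3 gave -0.27 (adjusted p = 0.762, permutation test), Lama3 and Lamb3 -0.08 (adjusted p = 0.902, permutation test) and Lama5 and Lamc1 0.242 (adjusted p = 0.876, permutation test). Itgav and Itgb6 were negatively related at r = -0.565 (adjusted p = 0.11, permutation test), and with the spread of the arrays removed r was 0.163.

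**Figure D5:**
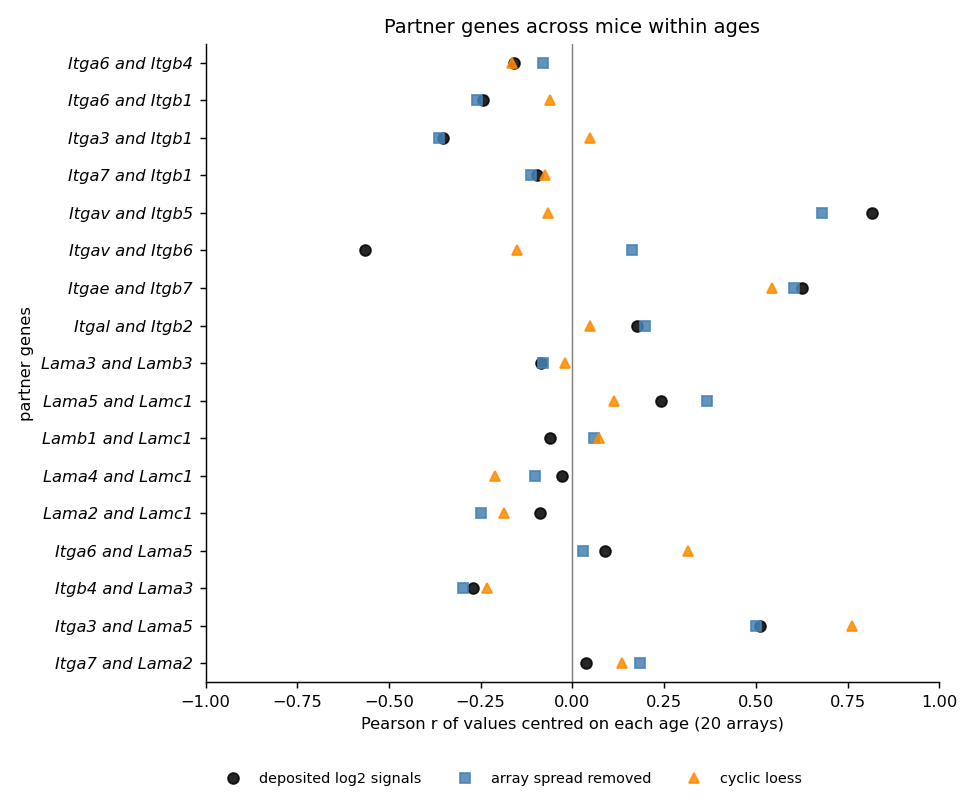
Pearson correlation (x axis) of 17 pairs of partner genes (y axis) over 20 arrays, on values centred on each age. Circles show the deposited signals, squares the same with the spread of the arrays removed, and triangles values after cyclic loess. The chosen probe sets of Itgav and Itgb5 had an r of 0.817 in the deposited signals and of -0.07 after cyclic loess.

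Among genes that act beside integrins and laminins, those that passed the test had fallen. By sign alone, 14 of the 43 measured were positive and 29 negative at 8 weeks against 4 weeks. The alternative fits are given here for the members only. Of 43 such genes measured, 5 fell and 0 rose at 8 weeks against 4 weeks by limma, beside the 4.13% and 3.26% of all genes. Of 9 basement membrane partners, Nid1, which links laminin to collagen IV, fell by 0.98 (standard error 0.197), and the collagen IV chains Col4a1 and Col4a2 fell by 1.45 and 1.38 (limma, adjusted p = 0.0185 for each of the 3). Nid1 averaged 5.19 at 8 weeks and 6.17 at 4 weeks, and Col4a1 averaged 6.70 at 8 weeks and 8.15 at 4 weeks. Of 14 integrin adaptors, Parva and Vcl, which connect integrins to actin, fell by 0.95 and 1.00 (limma, adjusted p = 0.0449 and 0.0424). None of 6 hemidesmosome partners, 4 other laminin receptors or 10 ligands of the other integrins passed. At 16 weeks against 4 weeks 2 of the 43 fell and 0 rose, beside 3.12% and 0.506% of all genes. These were Nid1, by 0.81, and Col4a2, by 1.27 (limma, adjusted p = 0.0313 and 0.0189). None of the 43 passed in the other 4 comparisons. The fall of the fibroblast markers given above accompanied that of these genes, and its part was not tested.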

How the data were processed

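Total RNA of the SGs of each mouse was hybridised by the authors to 1 Affymetrix mouse expression array. The deposited values are log2 signals that the authors obtained by robust multi-array averaging (RMA), according to the submitters’ processing notes. Whether arrays of other mice entered the same normalization is not given in the sources used here. The table held 45101 probe sets, with a single gene symbol for 34958, more than 1 for 932 and no annotation used here for 9211. Each of 18194 genes was represented by its probe set of highest mean over the 20 arrays, without further normalization.

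A linear model with a coefficient for each age was fitted to all 20 arrays (limma 3.58.1, R 4.3.3), and Benjamini-Hochberg adjustment ran over all genes, with 0.05 as threshold. Mice are biological replicates per the labels. The limma p-values set a difference between ages against the spread between mice, pooled over the 4 ages and moderated over all genes. Pairs of partner genes were tested by 100000 permutations within ages and adjusted over the 17 pairs tested. The probe sets of all members were also tested singly, in a fit over all probe sets that was chosen after seeing the data. RefSeq promoters (GRCm38.p6) were matched by symbol for 22 of the 34 members.

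Named genes are the members past a test, all laminin chains and laminin-binding subunits, integrins named by the study and the 3 members of largest moderated t per comparison. Genes named beyond this rule (Itga1, Itga2, Itga5, Itgam, Itgb3 and Itgb8) were chosen after their values were seen. Members and lists were chosen with earlier results of these data known. Scripts were tested on simulated data. Alternatives were equal array medians, cyclic loess, averaging the probe sets of a gene, removal of genes under the 40th percentile of mean signal, a replicate block, fits to 2 ages only, limma-trend with robust variances, array weights, the spread of signal as covariate and omission of single mice.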

Additional observations from a re-analysis of the deposited data

Results flagged for a closer look

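In 6 of the 136 groups of 5 mice (34 genes at 4 ages), or 4.41%, 1 mouse stood apart from the others of its age by Dixon's criterion, which chance meets in about 1 of 20 groups. At 4 weeks, Itgb1 had a log2 signal of 7.67 in mouse 5, and the next mouse was at 7.13. At 8 weeks, mouse 3 was high in both Itga10 (5.29, next 4.87) and Lama3 (6.27, next 5.62). At 16 weeks, mouse 1 was high in both Itgav (9.02, next 7.65) and Lamb3 (5.92, next 5.24), and mouse 5 was high in Lamb2 (5.09, next 4.30). All 6 were the highest mouse of their age.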

How the results depend on the processing

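The counts of members called in alternative fits are given without the share of all genes called in the same fit. A change in these counts therefore cannot be read as particular to the members. Against the 3 members called at 8 weeks against 4 weeks, 5 were called with array medians set equal, 5 with limma-trend and robust variances, and 0 with the replicate block, array weights, the spread of the arrays as a covariate or only the arrays of the 2 ages. Against the 1 called at 16 weeks against 4 weeks, 2 were called after cyclic loess, with limma-trend and robust variances or with array weights, and 0 with the spread as a covariate or only the arrays of the 2 ages. The F-test called 1 member, against 0, with array medians set equal, cyclic loess or array weights. With the mean of probe sets, 1 member was called at 16 weeks against 4 weeks, but it was Itgb2 (0.47, limma, adjusted p = 0.0405), not Lamc1. Itgb2 has 1 probe set, so averaging left its own signals and log2 fold change as they were. Of the partner pairs, 0 passed after cyclic loess, when the r of Itgav and Itgb5 turned to -0.0654.

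Without 1 mouse at a time, 0 to 7 members were called at 8 weeks against 4 weeks, 0 to 3 at 16 weeks against 4 weeks, 0 to 3 by the F-test, and 1 to 2 partner pairs, while 0 were called in the other 4 comparisons throughout. At 8 weeks against 4 weeks, 0 were called without the 4-week mouse 4 or 5 or the 8-week mouse 3 or 5, 1 without any single mouse at 12 weeks or the 16-week mouse 3, 2 without the 4-week mouse 1, 5 without the 4-week mouse 3 or the 16-week mouse 2, 6 without the 8-week mouse 1 or the 16-week mouse 1, and 7 without the 8-week mouse 4. For 16 weeks against 4 weeks, 0 were called without the 4-week mouse 4 or 5 or the 16-week mouse 2, 4 or 5, 2 without the 4-week mouse 2, the 8-week mouse 5 or the 16-week mouse 3, and 3 without the 16-week mouse 1. By the F-test, 1 was called without the 8-week mouse 1, 2 or 4 and 3 without the 16-week mouse 1. A second partner pair passed without the 12-week mouse 3 or the 16-week mouse 2 or 5. The log2 fold change without 1 mouse was 0.56 to 0.76 for Itgb6 (past the threshold in all but 4 of 20 fits), 0.35 to 0.48 for Itga4 (all but 13), -1.04 to -0.72 for Itga8 (all but 12) and -0.83 to -0.62 for Lamc1 (all but 5). Among these 4 genes, no alternative that kept a gene turned its sign. Itgb6, at the 25.5 percentile of mean signal, was removed by the filter on dim genes, so that alternative did not test it.

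Samples with the same replicate number did not deviate together on average (30 pairs, r of -0.567 to 0.583, mean -0.0438, beside 0.0112 for other numbers). Of 20 arrays, 4 correlated best with their own number. The numbers thus showed no pairing of the mice on average, which does not settle the matter for single pairs. With 5 arrays an age, the number of arrays limits the precision. Of the members, 19 passed the filter on dim genes.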
